A study of Mus musculus with 15 samples.

Results

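The genes described here were 40 genes of the integrated stress response and of amino acid supply, chosen by name and looked up by symbol. All 40 were found among the 26061 genes of the deposited expression table. They fall into 11 sensors and regulators, 10 enzymes of serine, glycine, one-carbon, asparagine and proline synthesis, 9 amino acid transporters and 10 aminoacyl-tRNA synthetases. The values came from 15 rRNA-depleted RNA-seq libraries of mouse embryonic stem cells (ESCs).

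The cells of all 3 groups were E14, an ESC line of 129/Ola background, grown without feeders in serum and LIF. They carried a lentiviral pLKO.1 construct with a non-targeting hairpin (shScr), a hairpin against Tet1 (shTet1) or a hairpin against Tet2 (shTet2), and were collected once puromycin had been applied for 3 days. Each group had 5 libraries, all with the same 1 hairpin, so an effect of a hairpin on other transcripts cannot be told apart from that of its target. TET1 and TET2 oxidise 5-methylcytosine in DNA, and the comparisons asked how their depletion altered RNA levels.

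In the integrated stress response, kinases such as PERK (encoded by Eif2ak3) and GCN2 (Eif2ak4) phosphorylate the translation factor eIF2 when the endoplasmic reticulum is stressed or amino acids are short. Translation then slows in general, while translation of the transcription factor ATF4 goes up. ATF4, often as a dimer with a C/EBP protein, drives genes for amino acid synthesis, uptake and tRNA charging, and a feedback arm that includes the phosphatase subunit encoded by Ppp1r15a. RNA levels do not report the translation or phosphorylation steps.

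ATF4 and C/EBP dimers are known to bind composite letters close to TGATGNAA, so these letters were looked for on both strands of the RefSeq promoter windows (GRCm38.p6; 250 bases before to 50 after each start). A window was at hand for 34 members, with Mars taken under its RefSeq symbol Mars1. None was used for Slc7a3, Slc7a5, Slc1a5, Nars, Wars and Lars. The letters stood in a window of 12 of the 34 members (35.3%), against 4.51% of all 27025 genes and 3.97% of all 32851 windows. The 12 were Atf3, Trib3, Chac1, Asns, Pycr1, Slc7a11, Slc1a4, Gars, Aars, Tars, Iars and Yars. The longer form TGATGCAAT, which always holds a match of TGATGNAA, stood in 3 of 34 (8.82%, Pycr1, Aars and Iars) against 0.222% of genes. A cAMP response element, TGACGTCA, which reads the same on both strands and was searched apart from the other patterns, was found in Ppp1r15a alone (2.94% of members, 2.03% of genes). The promoters were chosen by name, and a match describes letters, not binding.

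Of these, 5 members described at length below are shown with Ppp1r15a and, for the exact longer form, Pycr1 and Iars. Capitals mark the 8 searched letters, and each stretch is 5′ to 3′ on the strand stated.
Atf3, chr1:191183425-191183454, plus strand: cgcggacttggTGATGCAAgtgcgagaagg
Chac1, chr2:119351038-119351067, minus strand: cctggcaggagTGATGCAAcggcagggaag
Trib3, chr2:152344028-152344057, plus strand: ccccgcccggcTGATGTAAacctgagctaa
Slc1a4, chr11:20332699-20332728, plus strand: caggctggagaTGATGCAAcgcaggaggca
Asns, chr6:7693214-7693243, minus strand: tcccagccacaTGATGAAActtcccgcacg
Pycr1, chr11:120643833-120643862, minus strand: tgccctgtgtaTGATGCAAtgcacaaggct
Iars, chr13:49682126-49682155, minus strand: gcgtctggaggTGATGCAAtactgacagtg
Ppp1r15a, chr7:45526262-45526291, minus strand: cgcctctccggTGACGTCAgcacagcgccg
In Chac1 the letters lay 193 bases before the RefSeq start and in Atf3 110 bases before it. In Slc1a4, Asns, Trib3 and Iars they lay within 30 bases of it.

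Reads in genes numbered 15258291 to 35432425 per library. Hairpins lowered their targets: Tet1 was 13.99 ± 0.21 in shScr and 12.15 ± 0.18 in shTet1, and Tet2 was 13.33 ± 0.15 in shScr and 11.42 ± 0.20 in shTet2 (variance-stabilised log2 values, SD, n = 5 each). The ESC genes Pou5f1, Nanog and Sox2 were high in every library (at least 4502 normalised reads each), whereas 7 fibroblast markers summed to between 69 and 264 normalised reads, with Lum at 0 throughout. Of the 9 ESC markers on the list, Utf1 was far lower, at 89.9 to 702 normalised reads. Libraries did not divide by hairpin alone. Mitochondrially encoded genes took 1.47% to 2.40% of reads in the 6 libraries of replicates 1 and 2, and 0 in the 9 libraries of replicates 3 to 5. Of reads in genes, 54.5 to 64.7 ppm fell in 1451 genes for smell and pheromone receptors in the 3 libraries numbered 4 and 56.3 ppm in shTet1 replicate 3, against 11.1 to 26.5 ppm in the other 11. RNA had been isolated with either of 2 reagents or kits per the labels, which do not assign them to libraries and give no batch.

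All 40 members were above the table minimum in all 15 libraries. On the scale of normalised reads per kilobase of exon, which allows levels of different genes to be compared, shScr cells had most RNA for the synthetases Nars (5924 ± 1193), Gars (5267 ± 326), Tars (4800 ± 673) and Sars (4678 ± 607), followed by Atf4 (4183 ± 1335), Lars (4183 ± 310) and Asns (3446 ± 974; SD, n = 5). None of these neighbours differed by more than their SDs. Asns, which makes asparagine from aspartate, was above the serine pathway enzymes Psat1 (1291 ± 350), Psph (629 ± 128) and Phgdh (274 ± 61.1), which convert a glycolytic intermediate to serine. Per kilobase of the longest transcript instead, Asns was 4675 ± 1322, Psat1 2099 ± 569 and Ddit3 355 ± 349, with Asns still above the 3 serine enzymes. Transporters spread most, from Slc38a2 (1752 ± 210), a carrier of small neutral amino acids, to the cystine carrier Slc7a11 (8.06 ± 2.10) and the glycine carrier Slc6a9 (10.1 ± 8.98). Among the stress genes downstream of Atf4, Ddit3 (201 ± 197), Chac1 (138 ± 157) and Atf3 (48.5 ± 60.3) had SDs near or above their means, and Trib3 was at 173 ± 101.

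**Figure D1:**
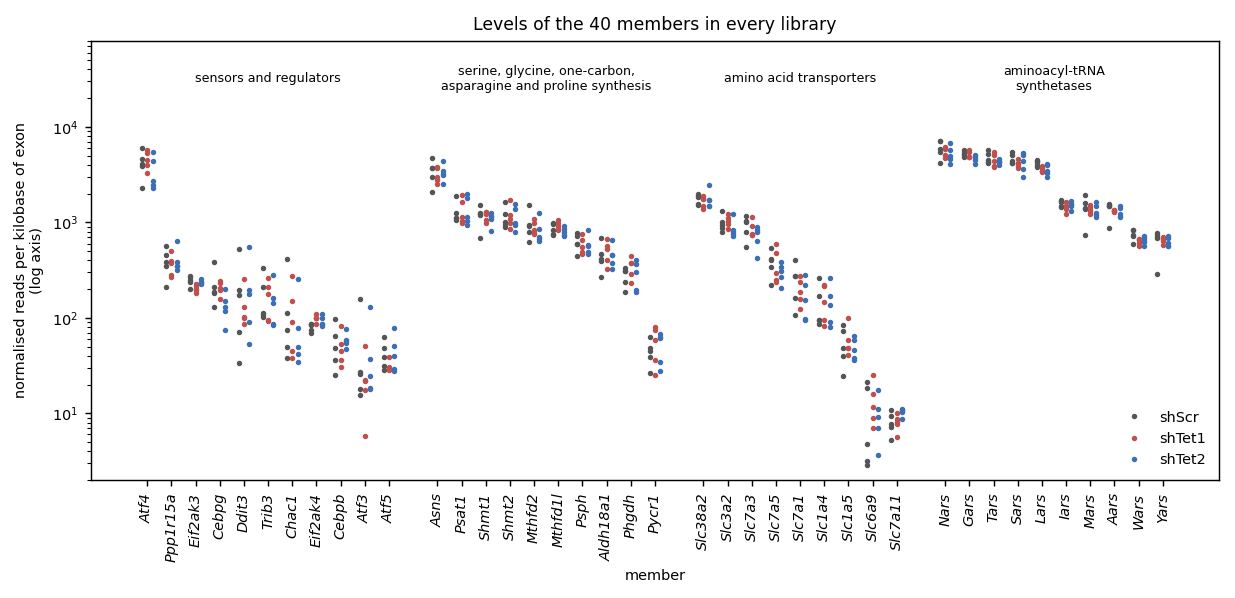
Normalised reads per kilobase of exon (log axis) of the 40 members, 1 point per library, coloured by hairpin and ordered within each role by level. Nars, Gars, Tars, Sars, Lars, Atf4 and Asns form the top of the range and Slc6a9 and Slc7a11 the bottom, and the points of the 3 hairpins overlap in height for most members.

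With the hairpin as the only term in the fit, no member passed the test in any comparison of hairpins. Calls between hairpins given below are from that fit unless another is named. With limma over all 19490 genes tested and a Benjamini-Hochberg adjusted p under 0.05, 0 of 40 members were called in shTet1 against shScr, where 0.0718% of all genes were, 0 of 40 in shTet2 against shScr (0.39% of all genes) and 0 of 40 in shTet2 against shTet1 (4.24%). The unadjusted p was under 0.05 for 2, 1 and 1 members (5%, 2.5% and 2.5%), against 11.8%, 11.6% and 15.7% of all genes. The members' median differences were −0.04, −0.06 and −0.06 on the log2 scale, beside 0.01, 0.04 and 0.01 for all genes. The 95% confidence interval of the difference lay within 1 log2 unit of 0 for 36, 36 and 35 members, on a scale that compresses differences at low read counts. The intervals that reached beyond 1 belonged to Atf3, Ddit3, Chac1, Slc6a9, Slc7a1 and Cebpg. The first 2 comparisons share the shScr libraries. When the replicate number was added as a block, Cebpg and Atf4 were called in shTet2 against shTet1, as given below. In bulk RNA, fewer cells with a transcript and less of it per cell cannot be told apart.

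**Figure D2:**
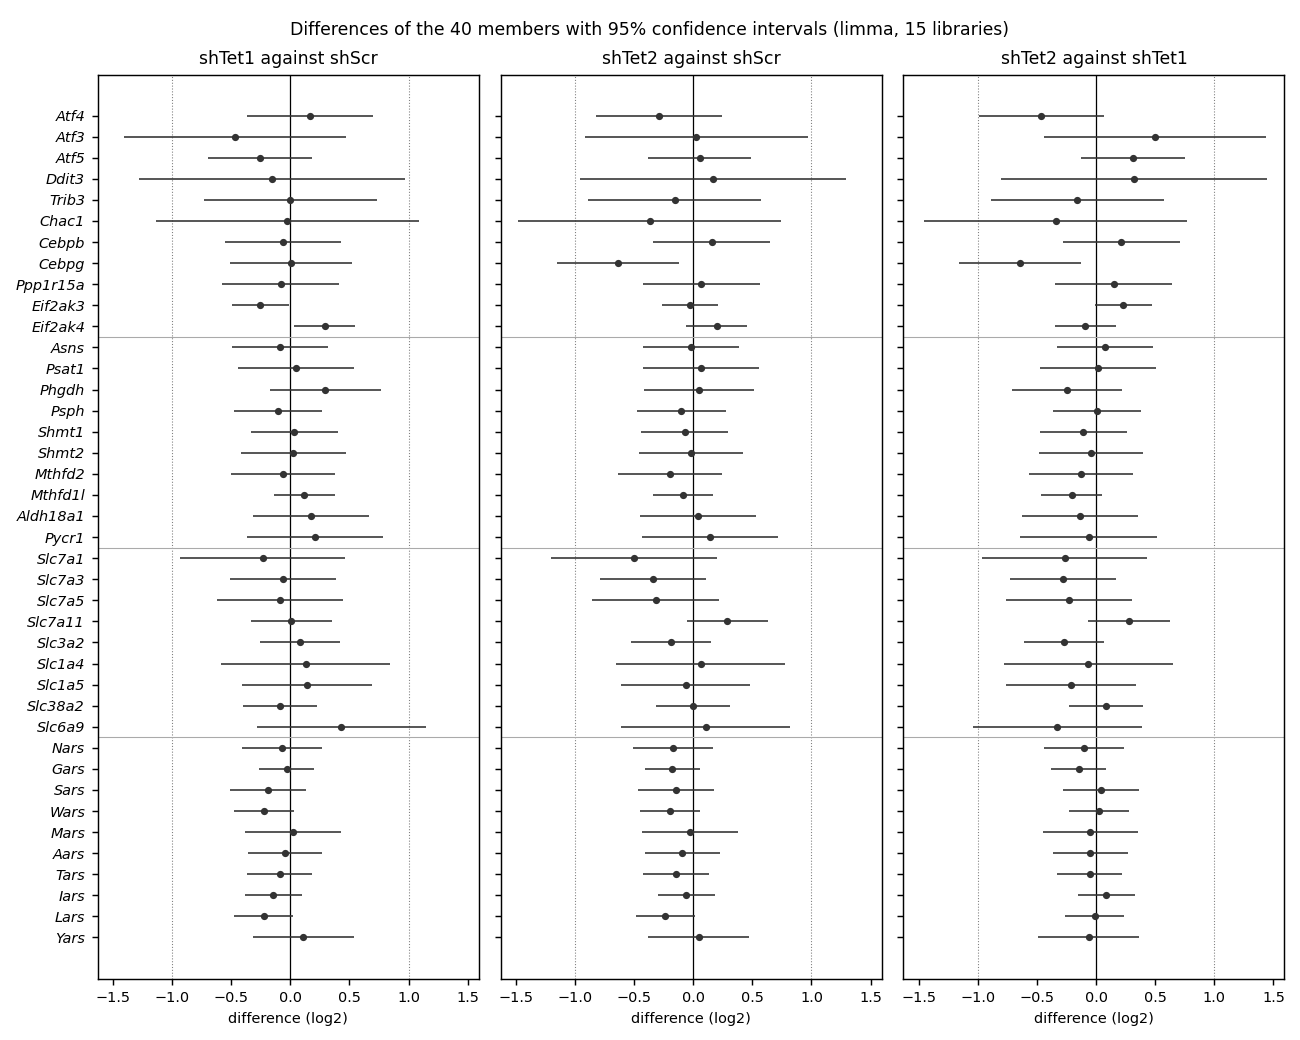
Difference in variance-stabilised log2 value for each member in 3 comparisons, with 95% confidence intervals from limma over 15 libraries (n = 5 per group), and dotted lines at −1 and 1. Most intervals cross 0, the widest are those of Atf3, Ddit3 and Chac1, and Cebpg lies at −0.64 in both comparisons with shTet2.

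Among the sensors and regulators, Atf4 (mm9, chromosome 15, 80085614 to 80087970, plus strand) was 12.98, 11.98, 12.79, 13.34 and 12.70 in shScr replicates 1 to 5 (variance-stabilised log2 values). It was 13.18, 12.49, 12.77, 13.28 and 12.94 in shTet1. In shTet2 it was 12.90, 12.08, 11.97, 13.20 and 12.20. The groups overlapped, but each shTet2 library was below the shTet1 library of the same number. The difference was 0.17 (SE 0.25) in shTet1 against shScr, −0.29 (SE 0.25) in shTet2 against shScr and −0.46 (SE 0.25, limma adjusted p = 0.415) in shTet2 against shTet1.

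Cebpg (mm9, chromosome 7, 35831441 to 35841522, minus strand) encodes a C/EBP protein that partners ATF4. Its values were 10.08, 9.40, 9.89, 10.91 and 9.88 in shScr and 10.27, 9.68, 9.99, 10.20 and 10.04 in shTet1. In shTet2 they were 9.29, 8.67, 9.40, 9.996 and 9.62. Replicates 4 and 5 of shTet2 overlapped other groups, while each of the 5 was below both libraries of its number. The numbers were not taken to pair shTet2 with shScr. It was the member with the largest difference, −0.64 (SE 0.25) against shScr (95% interval −1.15 to −0.12, limma adjusted p = 0.299) and −0.64 (SE 0.25) against shTet1 (interval −1.16 to −0.13, limma adjusted p = 0.181). Neither was called. The exact permutation p was 0.0873 and 0.0238.

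Same-numbered libraries of shTet2 and shTet1 were taken as pairs from correlations of deviations alone (all 5 at least 0.33). Whether traits shared by sets of libraries, such as the mitochondrial reads, gave these correlations was not tested. The number was added as a block to the fit of all 15 libraries. The shScr libraries, whose numbers were not taken to pair with shTet2, thus entered the shared spread. In shTet2 against shTet1, 2 of 40 members were called, both lower, where 11.2% of all genes were called and 4.65% called lower. They were Cebpg (−0.64, SE 0.14, limma adjusted p = 0.00613) and Atf4 (−0.46, SE 0.12, adjusted p = 0.024). Cebpg was called in all 15 fits that left out 1 library. Atf4 was called in 10 of 15 and was not without shTet1 replicate 2, 3 or 5 (adjusted p 0.0751, 0.0703 and 0.0676) or without shTet2 replicate 3 or 5 (0.0625 and 0.0899). Without shTet2 replicate 3, 3 of 40 members were called, where 11.1% of all genes were: Cebpg with the transporter genes Slc7a5 (−0.47, adjusted p = 0.0379) and Slc3a2 (−0.33, adjusted p = 0.0487), whose products form 1 carrier of large neutral amino acids. With the block, 0 of 40 members were called in shTet1 against shScr, where 4.8% of all genes were. The numbers were not taken to pair shTet2 with shScr, where the block called 1 of 40 members (Cebpg, −0.64, adjusted p = 0.0182) and 4.31% of all genes.

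The kinase genes had small differences. Eif2ak4 was 9.22, 9.11, 9.42, 9.41 and 9.39 in shScr and 9.60, 9.75, 9.62, 9.61 and 9.42 in shTet1. The groups did not overlap, as for 2.62% of all genes, and the difference was 0.29 (SE 0.12, limma adjusted p = 0.356, exact permutation p = 0.00794, the smallest it can give). It was 0.51 within replicates 1 and 2 and 0.14 within replicates 3 to 5. Eif2ak3 was 10.36, 10.14, 10.53, 10.59 and 10.43 in shScr and 10.29, 10.004, 10.15, 10.22 and 10.11 in shTet1, a difference of −0.26 (SE 0.11, limma adjusted p = 0.389, exact permutation p = 0.0397). In shTet2 it was 10.34, 10.32, 10.48, 10.39 and 10.39, all above the shTet1 libraries, as for 6.04% of all genes in that comparison (0.23, SE 0.11, adjusted p = 0.353). None of these differences was called. In shTet2 against shScr no member had groups apart, while 2.7% of all genes did.

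The stress-induced regulators differed far more within groups than between them. Atf3, a transcription factor of the acute response, was 6.44, 6.41, 5.98, 8.44 and 6.10 in shScr replicates 1 to 5. It was 6.27, 6.25, 5.34, 7.09 and 6.08 in shTet1 and 6.11, 6.36, 6.09, 8.20 and 6.75 in shTet2. Replicate 4 was the highest of each group, and the next highest library was shTet2 replicate 5, at 6.75. The differences between hairpins were −0.47 (SE 0.45), 0.03 (SE 0.45) and 0.50 (SE 0.45) in shTet1 and shTet2 against shScr and in shTet2 against shTet1.

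Ddit3 encodes CHOP, which promotes cell death under lasting stress. It was 7.30, 6.52, 8.52, 9.89 and 8.38 in shScr cells, 7.52, 7.71, 7.71, 8.88 and 8.02 in shTet1 cells, and 8.54, 6.98, 7.57, 9.95 and 8.40 in shTet2 cells. Again the libraries numbered 4 were the highest of all 3 groups. The differences were −0.16, 0.17 and 0.32 (SE 0.54 each). Ddit3 shares 4.73% of its exon bases with the opposite strand, mostly with Mars, and whether the counting used strand was not stated.

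Trib3, a pseudokinase that damps ATF4, was 8.92, 7.98, 8.09, 9.55 and 8.05 in shScr cells, 8.93, 8.69, 7.86, 9.22 and 7.88 in shTet1 cells, and 8.57, 8.41, 7.74, 9.31 and 7.78 in shTet2 cells. Chac1, which degrades glutathione, was 7.79, 6.86, 6.60, 9.48 and 7.31 in shScr cells, 8.13, 7.53, 6.76, 8.91 and 6.59 in shTet1 cells, and 7.36, 6.85, 6.68, 8.84 and 6.49 in shTet2 cells. For both, number 4 was the highest and number 1 the next in every group. The differences were 0.00, −0.16 and −0.16 for Trib3 (SE 0.35) and −0.03, −0.37 and −0.34 for Chac1 (SE 0.53), with limma adjusted p of at least 0.853.

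The other regulators were Atf5, Cebpb and Ppp1r15a. Their differences ranged from −0.26 (Atf5, shTet1 against shScr) to 0.31 (Atf5, shTet2 against shTet1), with adjusted p of at least 0.542. Ppp1r15a was chosen for its values after they were seen. It was 10.05, 9.37, 10.19, 10.73 and 10.42 in shScr cells, 9.67, 9.75, 10.21, 10.56 and 10.17 in shTet1 cells, and 9.93, 10.04, 10.04, 10.90 and 10.20 in shTet2 cells, with number 4 again the highest of each group. Of the exon bases of Cebpb, 20.7% lie opposite Tmem189.

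**Figure D3:**
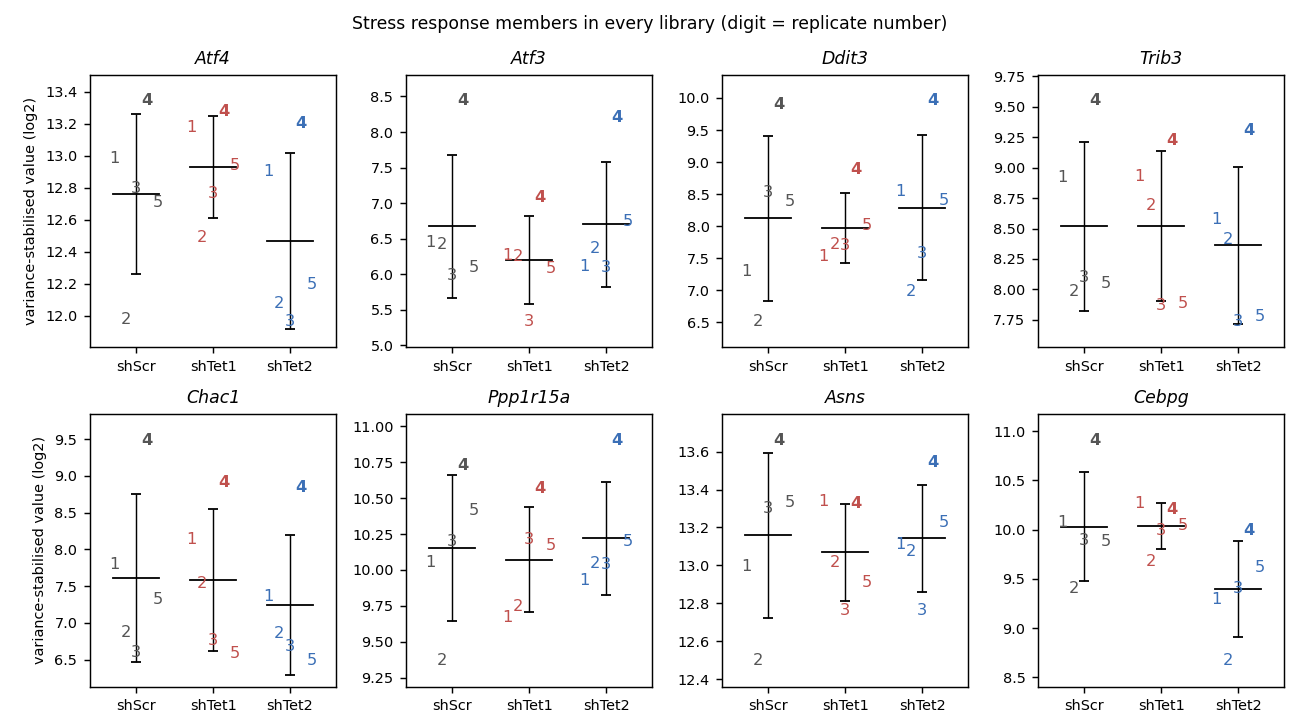
Variance-stabilised log2 values of 8 members by hairpin, with the digit giving the replicate number (number 4 in bold), the horizontal line the group mean and the bar ± 1 SD (n = 5). Number 4 is the highest library of all 3 groups for Atf4, Atf3, Ddit3, Trib3, Chac1 and Ppp1r15a, while Cebpg is the member whose shTet2 mean lies lowest against the other groups.

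Of the synthesis enzymes, Asns was 13.00, 12.50, 13.30, 13.66 and 13.33 in shScr cells, 13.34, 13.01, 12.76, 13.33 and 12.91 in shTet1 cells, and 13.11, 13.07, 12.76, 13.54 and 13.23 in shTet2 cells. The groups overlapped, and the differences were −0.09, −0.02 and 0.07 (SE 0.19, limma adjusted p of at least 0.919). In shTet1 against shScr the sign turned between sets of replicates, from 0.43 in replicates 1 and 2 to −0.43 in replicates 3 to 5. The serine and glycine enzymes Psat1, Phgdh, Psph, Shmt1 and Shmt2 differed by −0.11 to 0.30 from shScr, and the folate enzymes Mthfd2 and Mthfd1l by −0.19 to 0.12. The proline enzymes Aldh18a1 and Pycr1 differed by 0.04 to 0.21. Of the 10 enzymes 0 were called, and the largest value, 0.30 for Phgdh in shTet1 (SE 0.22), had an adjusted p of 0.668. Phgdh shares 5.11% of its 50-base stretches with other transcripts, Gm6756 among them.

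The transporters gave the same picture with a wider spread. The cationic amino acid carrier Slc7a1 had the lowest value, −0.50 (SE 0.33, limma adjusted p = 0.624) in shTet2 against shScr. Slc7a3, another cationic carrier, differed by −0.34 (SE 0.21) and Slc7a5 by −0.32 (SE 0.25) in that comparison. Slc7a11 was 7.34, 7.26, 7.31, 7.24 and 7.05 in shTet2 against 6.94, 7.21, 7.06, 6.98 and 6.61 in shTet1, higher in 5 of 5 numbered pairs by 0.28 (SE 0.16, exact permutation p = 0.0238, limma adjusted p = 0.46). Atf4, Cebpg, Chac1, Phgdh, Mthfd1l, Slc3a2 and Gars were lower in 5 of 5 pairs of shTet2 with shTet1, and Eif2ak3 was higher. The share of all genes with such pairs was not computed. Slc3a2, Slc1a4, Slc1a5 and Slc38a2 lay between −0.19 and 0.14 of shScr. The highest value was 0.43 for Slc6a9 in shTet1 (SE 0.34, adjusted p = 0.687), a gene with 30.2% of its exon bases opposite other genes. Of the 9 transporters 0 were called in each of the 3 comparisons.

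The synthetases, which charge tRNAs, differed little between hairpins. Of the 10, 0 were called. In shTet1 8 and in shTet2 9 had a value below shScr, with medians of −0.08 and −0.15 beside 0.01 and 0.04 for all genes, but with quantile normalisation these were 5 and 6 of 10, with medians of 0.00 and −0.03. Lars was 14.09, 14.01, 13.90, 14.06 and 13.83 in shScr cells, 13.89, 13.70, 13.67, 13.71 and 13.80 in shTet1 cells, and 13.96, 13.72, 13.48, 13.91 and 13.64 in shTet2 cells. It was lower in 5 of 5 numbered pairs in both comparisons, by −0.22 (SE 0.12, limma adjusted p = 0.482) and −0.24 (SE 0.12, adjusted p = 0.464). The numbers were not taken to pair shTet2 with shScr, where Gars and Wars were also lower in 5 of 5. In shTet1 against shScr, Sars was lower in 5 of 5 as well. Wars followed at −0.22 and −0.20. Nars, Gars, Sars, Mars, Aars, Tars, Iars and Yars lay between −0.19 and 0.11. Centring each library on its median moved all genes by −0.11 in shTet2 against shScr, where all 10 synthetases then had a value below shScr (median −0.25). The size of these small differences, and the sign for some synthetases, thus depended on the scaling.

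In the median, members had more of their variation on the replicate number, and less on the hairpin, than all genes. The replicate number took a median of 58% of a member's sum of squares and the hairpin 8.53%, against 43.3% and 15.7% for all genes. With 5 numbers and 3 hairpins, the number takes the larger share even without an effect. For the synthetases the medians were 39.9% and 12.2%, both below those of all genes. In an F test of the replicate number in the limma fit with the hairpin, added after the values were seen, 20 of 40 members were called, where 27.9% of all genes were. By role these were 8 of 11 regulators, 7 of 10 synthesis enzymes, 5 of 9 transporters and 0 of 10 synthetases. The median SD within groups was 0.44 for regulators and 0.20 for synthetases, beside 0.29 for all genes.

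**Figure D4:**
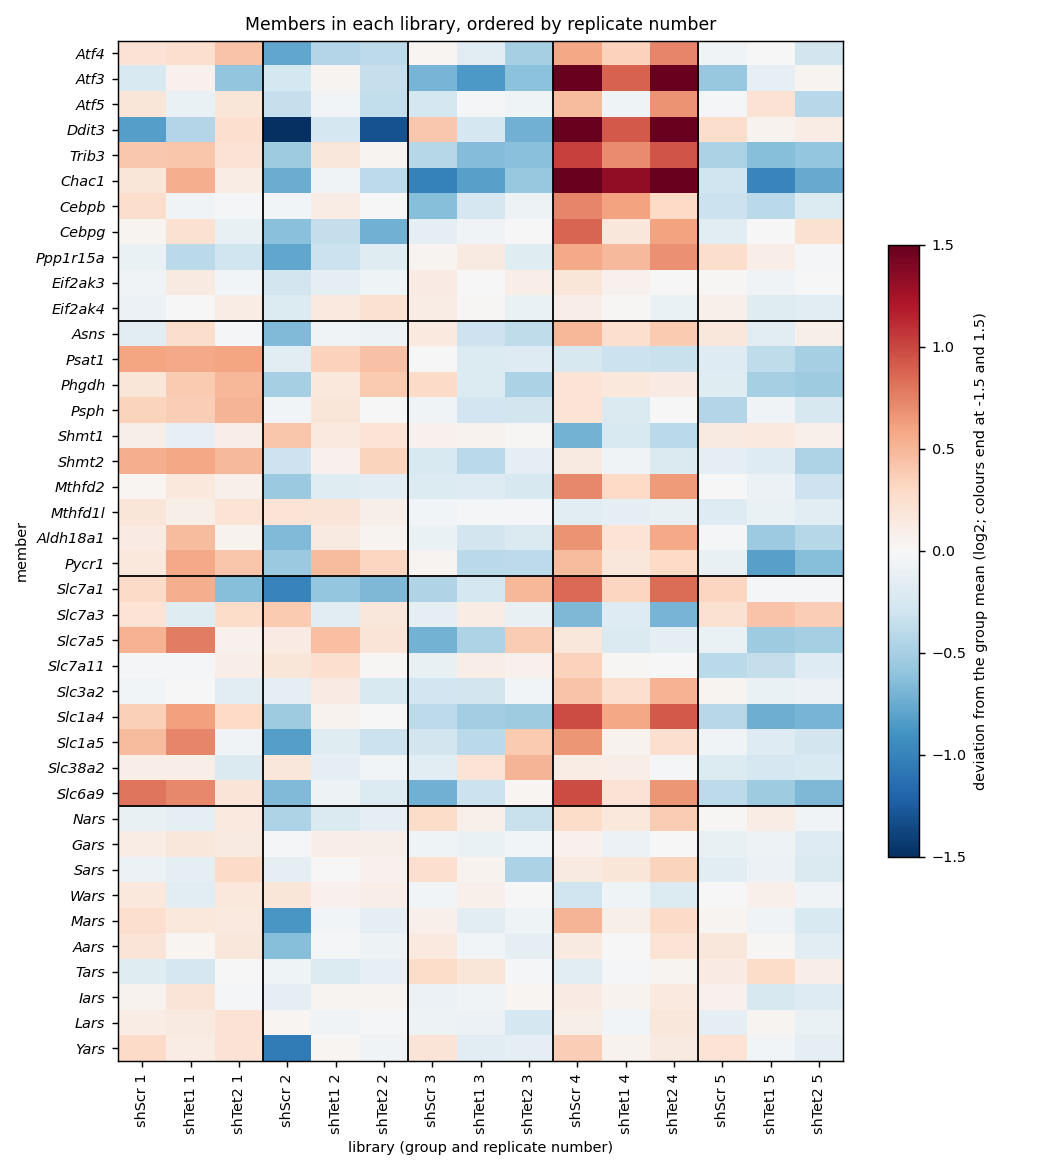
Deviation of each member from its group mean (log2; colours end at −1.5 and 1.5) in the 15 libraries, ordered by replicate number and split by role. The columns of number 4 are high for Atf3, Ddit3, Trib3 and Chac1 in all 3 groups, and the rows of the synthetases are pale except for shScr replicate 2.

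Libraries numbered 4 had the highest value of their group in all 3 groups for 9 of 40 members (22.5%), beside 8.57% of all genes. The 9 were Atf4, Atf3, Ddit3, Trib3, Chac1, Cebpb, Ppp1r15a, Mthfd2 and Slc3a2, which makes 7 of the 11 regulators. In normalised reads, Atf3 was 310, 101 and 258 in the number 4 libraries of shScr, shTet1 and shTet2. The mean of the other 4 libraries was 42.9 ± 11.1, 33.3 ± 15.0 and 48.3 ± 17.3 (SD, n = 4), so number 4 was 7.22, 3.02 and 5.35 times as high. The same ratios were 5.997, 3.36 and 5.04 for Chac1, 4.52, 2.43 and 4.33 for Ddit3, and 2.52, 1.84 and 2.37 for Trib3. For Atf4 they were 1.61, 1.33 and 1.83. In each of these genes the shTet1 ratio was the lowest of the 3, with no test of that order.

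Atf3, Chac1 and Trib3 are also among the 12 members with TGATGNAA in the promoter windows described above. The letters were not found in the windows of the other 6 of the 9, and sequence outside the windows was not searched. The synthetases Gars, Aars, Tars, Iars and Yars carried the letters, and none of them passed the F test of replicate number. Slc1a4, a carrier of neutral amino acids whose window holds the letters too, differed by 1.04 on the log2 scale between number 4 and the other libraries. It had 90.5% of its sum of squares on the replicate number. A link between the letters and the replicate number was not tested. Psat1, Psph, Shmt2, Gars and Lars were instead highest in number 1 in all 3 groups (2.38% of all genes were), and Shmt1 and Slc7a3 lowest in number 4 (6.66%). Enzymes and carriers thus had their highest or lowest values at several numbers. Apart from Atf4, Atf3, Ddit3, Trib3, Chac1 and Asns, the genes of this paragraph were picked from their values.

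The receptor reads given above were 54.5 to 64.7 ppm in the libraries numbered 4. In shTet1 replicate 3, where they were 56.3 ppm, Atf3 was at its lowest of all libraries (5.34), Chac1 at 6.76 and Ddit3 at 7.71. The part of the receptor reads in the pattern was not tested. Without the 3 libraries numbered 4, 0 of 40 members were called in each of the 3 comparisons, where 0.00513%, 0.113% and 2.48% of all genes were. With the replicate block as well, 2 of 40 were called in shTet2 against shTet1, where 5.86% of all genes were: Atf4 (−0.56, adjusted p = 0.0347) and Cebpg (−0.75, adjusted p = 0.00427).

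**Figure D5:**
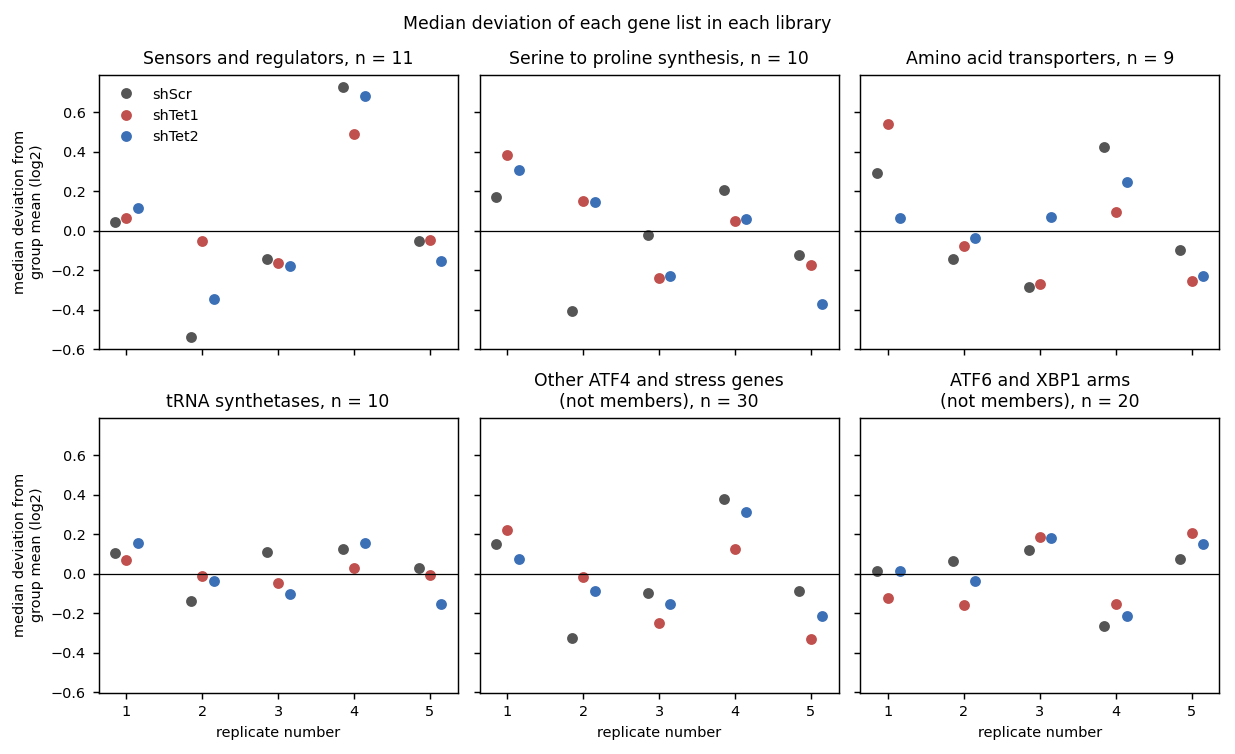
Median deviation from the group mean (log2) over the genes of 6 lists, 1 point per library, against replicate number and coloured by hairpin. Regulators and the other ATF4 genes lie above 0 in number 4 in all 3 groups, and regulators are highest there. In shTet1 the other ATF4 genes are higher in number 1 (0.22) than in number 4 (0.13). The synthetases stay within 0.16 of 0, and genes of the ATF6 and XBP1 arms lie below 0 in number 4.

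Outside the 40 members, of 30 other ATF4 and stress genes, 0 were called in any comparison (medians 0.09, 0.09 and 0.02), while 20 of 30 were called for the replicate number (27.9% of all genes) and 10 of 30 were highest in number 4 in all 3 groups (8.57% of all genes). With the replicate block, 3 were called in shTet1 against shScr, where 4.8% of all genes were (limma adjusted p 0.00788 to 0.0319). The amino acid carrier gene Slc43a1 was higher (0.66, SE 0.12). Cth, which makes cysteine (−0.62, SE 0.15), and Sesn2, an inhibitor of mTORC1 (−0.55, SE 0.13), were lower. In shTet2 against shScr the block called 3 of 30, where 4.31% of all genes were (limma adjusted p 0.00595 to 0.0319). The numbers were not taken to pair those groups. Slc43a1 (0.49, SE 0.12), Slc38a3 (0.58, SE 0.13) and Ddit4 (1.01, SE 0.18) were higher there. In shTet2 against shTet1, 4 of 30 were called with the block, where 11.2% of all genes were (limma adjusted p 0.00157 to 0.0236). Ddit4, another inhibitor of mTORC1 (1.01, SE 0.18), Slc7a2 (0.65, SE 0.14) and Sesn2 (0.56, SE 0.13) were higher, and Vegfa was lower (−0.63, SE 0.17). Ddit4 was thus higher in shTet2 in the blocked fit in which Atf4 and Cebpg were lower.

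The ATF6 and XBP1 arms of the unfolded protein response, which expand folding capacity of the endoplasmic reticulum, had a median below 0 in number 4. Of their 20 genes, 0 were highest there in all 3 groups and 3 lowest (6.66% of all genes), 10 were called for the replicate number, and their median in number 4 against the other libraries was −0.27, beside 0.69 for the regulators among the members. Of the 20, 0 were called between hairpins, and Derl3 (0.46, SE 0.14) and Dnajb9 (0.47, SE 0.11) were called higher in shTet2 against shTet1 with the block. With the block, 4.8% of all genes were called in shTet1 against shScr and 11.2% in shTet2 against shTet1. The 13 genes of eIF2, eIF2B and their kinases had 0 calls, and with the block Eif2s3x, a subunit of eIF2, was lower in shTet1 than in shScr (−0.81, SE 0.12) and higher in shTet2 than in shTet1 (0.50, SE 0.12). Neither the 13 other cytosolic synthetases and partners nor the 17 mitochondrial synthetases had a call with or without the block. Of 20 other one-carbon, polyamine and nucleotide genes, 1 was called, Oat, which links ornithine to proline (−0.52, SE 0.13, limma adjusted p = 0.0312 in shTet2 against shTet1). With the block, Oat was also higher in shTet1 than in shScr (0.39, SE 0.11), and the folate enzyme gene Aldh1l1 was higher in shTet2 than in shTet1 (0.77, SE 0.15).

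Some markers of other cell states were called in shTet2 against shTet1. All 7 of the 2-cell-like markers analysed, led by Gm5662 (2.33) and the Zscan4 genes (2.22 to 2.27), were called higher in shTet2 than in shTet1. Their summed level was 17822 to 35797 normalised reads in shScr, 3869 to 23889 in shTet1 and 41695 to 65607 in shTet2. In the same comparison Otx2 was called higher (1.01) and Eomes lower (−0.94). The 9 ESC markers had 0 calls, with sums of 100301 to 119970, 111814 to 139340 and 90057 to 111260, and the 9 primitive endoderm markers had 0, with sums of 3710 to 6624, 3622 to 4685 and 2628 to 4428. With the block, the ESC marker Dppa5a (−0.46) and the endoderm markers Dab2 (−0.79) and Pdgfra (−0.59) were called lower in shTet2 than in shTet1, and all 7 of the 2-cell-like markers lower in shTet1 than in shScr (−1.29 to −0.63). The part of these cells in the values of Atf4 and Cebpg was not tested.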

How the data were processed

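Directional rRNA-depleted libraries were prepared by the authors and read as single ends. Per the labels and the study's methods, reads were trimmed (Trim Galore 0.3.3), aligned to mm9 (TopHat 2.0.9, with 1 position kept per read) and counted per gene in Seqmonk, and the counts were normalised with DESeq2. The deposited gene values are variance-stabilised and on a log2 scale by the authors, with 0 reads at the minimum, 4.25. The inverse of the transformation returned whole numbers of reads (within 0.05) for 100% of values up to 1000 reads. Normalised reads are these reads divided by the authors' library factor. Because the deposited unit is log2, no count model was run. The table of repeat classes was not used here.

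Genes above the minimum in at least 5 of 15 libraries (19490) were fitted by lmFit and eBayes (limma 3.58.1, R 4.3.3; variance trend on, hairpin as the only term, two-sided). P-values were Benjamini-Hochberg adjusted over all genes tested (threshold 0.05). The two-sided exact permutation test of 5 against 5 has 252 splits and a smallest p of 0.00794. The labels do not say that replicates came from separate cultures, so p-values measure only the spread between these libraries. Same-numbered libraries were checked for pairing by correlating deviations from group means across genes: 0.374 to 0.657 (shTet1, shScr) and 0.33 to 0.731 (shTet2, shTet1) passed. For shTet2 and shScr replicate 3 gave 0.00789 and the numbers were not taken to pair them. Libraries of unlike number were set against each other for shTet2 and shScr only. The fit without the block was also run on simulated reads. These had no replicate effect shared between groups, so they do not bear on the block.

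Exon lengths and overlaps come from GENCODE vM1 on mm9. The members and gene lists were chosen with earlier results of these data known. All 40 members are named. Values per library were set to be given for called members and, whatever their p, for Atf4, Atf3, Ddit3, Trib3, Chac1 and Asns, and differences for those with an unadjusted p under 0.05. The values per library of Ppp1r15a, Eif2ak3, Eif2ak4, Slc7a11 and Lars go beyond that rule. So do those of Cebpg, which was not called in the fit with the hairpin as the only term. Of other lists, genes called are named (at most 3 up and 3 down). Usp17lc and Tfap2c were not analysed here. Alternatives covered filters, trend, scaling, weights, the groups in the fit, the replicate block, the threshold and each library left out; those without the libraries numbered 4, the F test and the blocked fits with 1 library left out were added after seeing the data.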

Additional observations from a re-analysis of the deposited data

Results flagged for a closer look

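In 120 sets of 5 libraries (40 members in 3 groups), 7 had a library whose gap to the next one exceeded Dixon's 95% critical value of 0.71 of the range, and chance gives about 1 in 20 sets. In shScr, replicate 4 was high for Atf3 (8.44, others 5.98 to 6.44), and replicate 2 was low for Aars (12.99, others 13.76 to 13.82) and Yars (10.78, others 12.02 to 12.19). In shTet2, replicate 4 was high for Slc3a2 (11.84, others 11.09 to 11.27) and Ppp1r15a (10.90, others 9.93 to 10.20), and replicate 3 was high for Slc38a2 (13.50, others 12.76 to 12.95). In shTet1, replicate 5 was high for Atf5 (6.815, others 6.49 to 6.58). All are variance-stabilised log2 values.

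Mthfd1l, a mitochondrial folate enzyme, was higher in shTet1 than in shScr in 5 of 5 numbered pairs (0.12) and lower in shTet2 than in shScr in 5 of 5 (−0.09), a gap of 0.21 between the depletions. The numbers were not taken to pair shTet2 with shScr. The direct test of shTet2 against shTet1 gave −0.21 (SE 0.12, limma adjusted p = 0.467).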

How the results depend on the processing

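The count of members called was 0 in shTet1 against shScr under all 26 alternatives. In shTet2 against shScr it was 0 under all but the replicate block, with 1 (Cebpg, −0.64, adjusted p = 0.0182). In shTet2 against shTet1 it was 1 with array weights (Cebpg, −0.75, adjusted p = 0.0484), 2 with the replicate block (Atf4 and Cebpg) and 2 with the block and without the libraries numbered 4, and 0 under the others. The cause was not tested. The block changed no other call of a member in the 3 comparisons. Without the block, leaving out 1 library at a time gave 0 to 0 members in each of the 3 comparisons, over which the count for all genes ran from 1 to 171, 10 to 99 and 512 to 902. The numbers were not taken to pair shTet2 with shScr, since replicate 3 correlated at 0.00789 and shTet2 replicates 2 and 3 matched shScr replicates 1 and 5 best. The blocked call of Cebpg there was lost without shScr replicate 1 or 4 or shTet2 replicate 1, 2 or 4 (adjusted p 0.0547 to 0.0757), and without shTet2 replicate 3 it was joined by Slc7a1 (−0.71, adjusted p = 0.0424) and Slc7a5 (−0.56, adjusted p = 0.0272), where 5.89% of all genes were called. Of 729 alternative values for 9 named members, 715 stayed on the same side of the threshold, 8 uncalled values moved by more than the replicate SD and 6 became calls, those of Cebpg and Atf4 given here and above. Of the uncalled values 73 had another sign. All genes together were called 935, 840 and 2178 times with the block, against 14, 76 and 827 without it. Depth limits the values of low genes: the lowest library had 11.5 normalised reads for Atf3, 14.9 for Slc6a9 and 37.7 for Cebpb.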
